A study of Mus musculus with 6 samples.

Results

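The mouse genome carries 39 Hox genes in 4 clusters, and all 39 were found among the 55487 genes of the deposited table. They were chosen by name alone, with cluster letters A to D and paralog numbers from 1 to 13, and fall into 11 genes of HoxA, 10 of HoxB, 9 of HoxC and 9 of HoxD. The set itself was selected on earlier values of the same 6 libraries, with Hoxb6, Hoxb9 and Hoxb5 as its markers, so the levels below are a description and carry no test of their own. The tissue was terminal ileum, taken at postnatal day 9 from the C57BL/6 strain, and the labels give 3 samples as NEC and 3 as control. NEC is necrotizing enterocolitis, an inflammatory necrosis of the newborn bowel. The model combined gavage of a hyperosmolar formula made from Similac and Esbilac, hypoxia at 5% O2 for 10 min, 3 times a day over 4 days, and lipopolysaccharide at 4 mg/kg per day by mouth on postnatal days 6 and 7. The control labels repeat this protocol, so what the controls received, fed or breathed is not stated. No label says that a library is 1 animal, and no genotype or transgene is named. The spread between libraries may therefore be partly technical.

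Hox proteins are homeodomain transcription factors that give cells their position along the head-to-tail axis. Their order along each cluster matches the order of the body regions in which they are active, with low paralog numbers anterior and high numbers posterior. In the bowel wall they are known mainly from mesenchyme, muscle and enteric neurons, and the Cdx factors, relatives of the Hox genes, act in the epithelium. The clusters also hold microRNA genes of the miR-10 and miR-196 families, which sit between particular Hox genes and have Hox transcripts among their known targets.

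The cluster microRNAs are shown because their hairpin genes were measured beside the members and because matches to the miR-196 seed were searched in Hox transcripts. RefSeq sequences on GRCm38.p6 are given 5′ to 3′, and capitals mark the seed, bases 2 to 8.
miR-196a-5p: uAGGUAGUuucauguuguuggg
miR-196b-5p: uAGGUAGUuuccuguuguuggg
miR-10a-5p: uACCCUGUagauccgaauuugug
miR-10b-5p: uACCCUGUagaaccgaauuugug
miR-615-3p: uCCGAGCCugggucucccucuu
The miR-196 forms share a seed and differ by A12C, counted from the 5′ end. The miR-10 forms share another seed and differ by U12A. The Mir196a-1 hairpin lies between Hoxb9 and Hoxb13 at chr11:96265164-96265265 on the plus strand, and its mature 5p stretch is in capitals.
Mir196a-1: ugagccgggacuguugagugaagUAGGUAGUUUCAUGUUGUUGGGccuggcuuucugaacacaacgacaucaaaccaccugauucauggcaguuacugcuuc

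The match to the miR-196 seed, ACTACCT on the transcript strand, was searched in the annotated 3′ UTRs of all protein-coding genes. It was found in 9 of 39 Hox genes, 23.1%, and in 1377 of 20982 genes with a 3′ UTR, 6.56%. The median of the longest 3′ UTR was 966 bases in the Hox genes and 962 bases in all genes. Among them were Hoxa4, Hoxa5, Hoxa7, Hoxa9, Hoxb1, Hoxb6, Hoxb7 and Hoxc8, and Hoxa7 held 4 matches. A match of letters is a description and not a shown target. Only exact matches were searched, so imperfect sites were missed, and a gene without a match may still be a target. The examples below are stretches of 22 bases in transcripts of members whose levels are given later, with the seed match in capitals.
Hoxa7, chr6:52215210-52215231, minus strand: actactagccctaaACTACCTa
Hoxb6, chr11:96301373-96301394, plus strand: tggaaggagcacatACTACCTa
Hoxb7, chr11:96289784-96289805, plus strand: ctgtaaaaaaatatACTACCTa
Hoxc8, chr15:102992976-102992997, plus strand: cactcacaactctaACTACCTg

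Levels are in FPKM, which scale fragments to transcript length and sequencing depth, and stand in the order NEC 1, 2 and 3 and then control 1, 2 and 3. The libraries held an estimated 15.2 to 18.7 M fragments. NEC 1 stood apart from the other NEC libraries: 8 smooth muscle markers summed to 143 FPKM in it, against 684 and 679 in NEC 2 and 3 and 778 to 924 in the controls. It was also the lowest NEC library for 20 of the 25 Hox genes in which 1 NEC library was strictly lowest. For that reason the main levels are given with and without it. Of 4 markers of the ileum, 2 were low in both groups. Fabp6, the ileal bile acid-binding protein, stood at 0.123, 0 and 10.4 FPKM in NEC and at 1.20, 1.23 and 2.45 in control, and was called lower only without NEC 3 (limma adjusted p = 0.0131). Slc10a2, the ileal bile acid uptake transporter, was at 1.01 to 2.30 FPKM in NEC and 1.31 to 2.21 in control. The bile acid export transporter genes Slc51a and Slc51b were called higher in NEC as reported and in all 13 alternatives. Slc51a was at 46.2, 56.7 and 68.8 FPKM in NEC and 32.3, 25.8 and 29.0 in control (limma adjusted p = 0.00998), and Slc51b at 47.8, 17.9 and 24.0 against 6.86, 5.19 and 6.70 (limma adjusted p = 0.00968).

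The Hox genes as a set were lower in NEC. Summed over all 39 genes, their level was 15.0, 25.5 and 31.3 FPKM in NEC and 72.3, 79.1 and 72.9 in control. The NEC mean was 32.0% of the control mean, or 38.0% without NEC 1, and the groups did not overlap. Of the 39 genes, 11 were listed at 0 in every library and 28 were above 0 in at least 1. All 26 genes above 0 in all 3 controls had a lower mean in NEC. For 23 of the 28 genes every NEC library was below every control library, and for none was every NEC library above, against 36.3% and 6.5% of the 33583 genes above 0 in at least 1 library. After a filter of a mean of at least 1 FPKM, 15 members entered the limma fit of all genes, with 13 called lower and 0 higher at an adjusted p under 0.05, and all 15 log2 changes were below 0. Of all 15806 genes tested, 30.6% were called lower and 7.69% higher. Without control 1, 2 or 3, the number of members called lower was 8, 7 and 8. Over all genes it was 1049 of 15595, 917 of 15553 and 1979 of 15644. Nothing is read from these shares for the members, because the rule that chose them used this contrast and several of them passed the filter through their control level. The median log2 change of the 15 was -1.13, against -0.26 over all genes tested. A TMM scaling moved the median of all genes to 0.00 and that of the members to -0.90, and it turned the split of all calls from 4829 lower and 1215 higher to 2252 lower and 2641 higher. In bulk tissue, fewer cells of a type and less RNA per cell cannot be told apart.

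**Figure D1:**
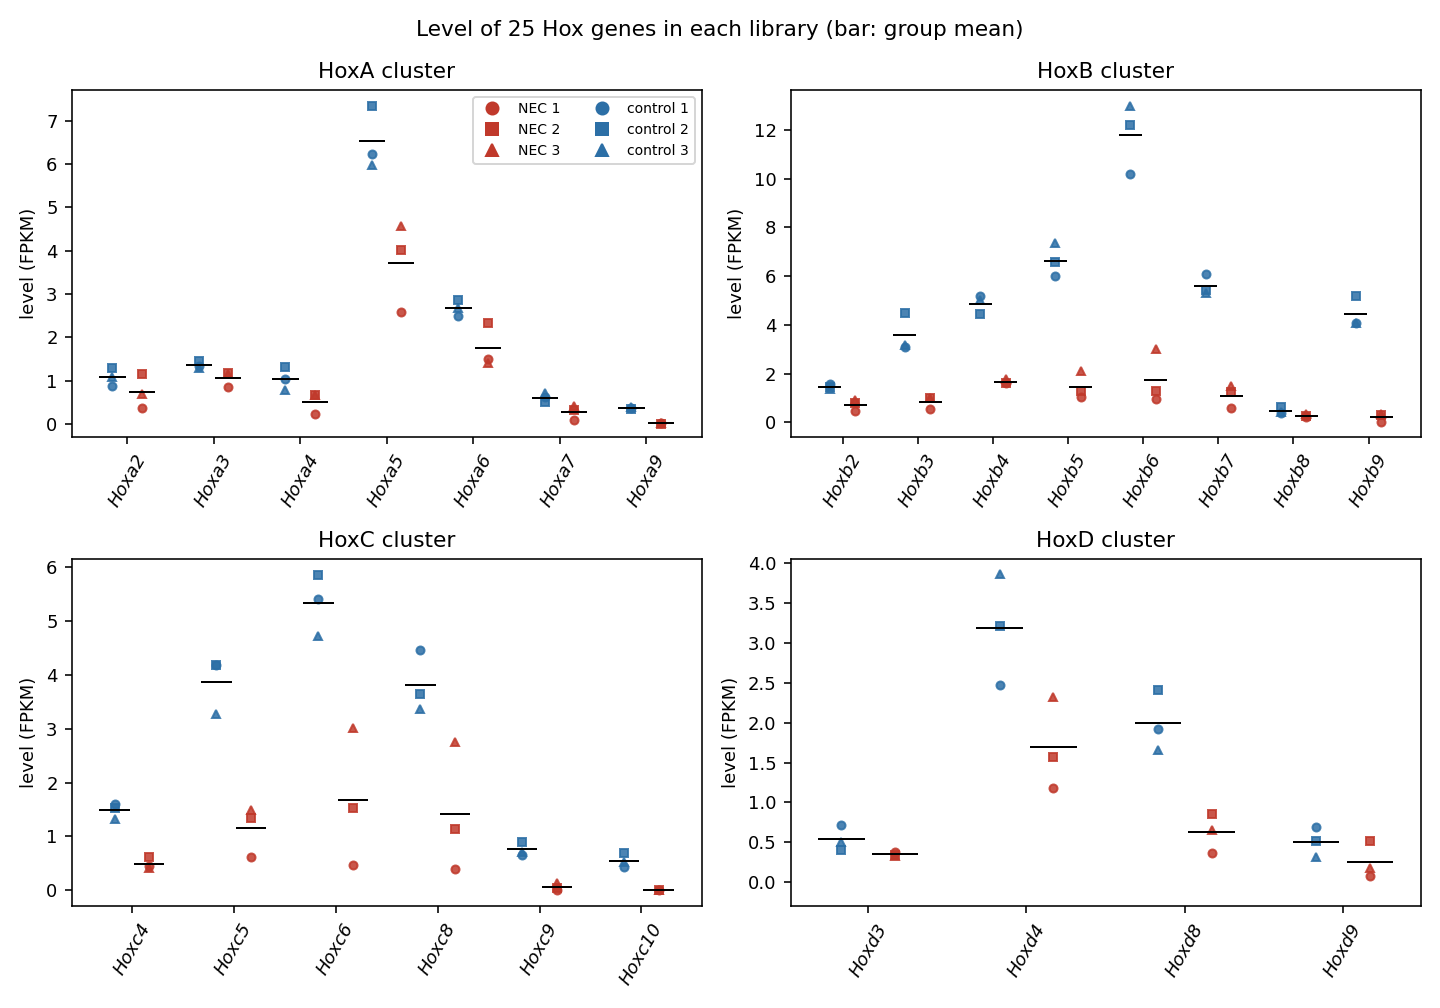
Level in FPKM of the 25 Hox genes that reached 0.3 FPKM in at least 1 library, ordered by paralog number within each cluster, with 1 point per library and a bar at each group mean. In the 8 HoxB genes from Hoxb2 to Hoxb9 every NEC point lies under every control point, and in Hoxa2 the points overlap.

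HoxB was the most abundant cluster in control ileum. It spans chr11:96194316-96368256 and summed to 36.5, 40.4 and 39.7 FPKM in control and to 5.40, 7.73 and 11.0 in NEC. That was 20.7% of control, or 24.1% without NEC 1.

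Hoxb6, a thoracic-level patterning gene (chr11:96292476-96301569), had the highest control mean of all members. It stood at 0.971, 1.27 and 3.00 FPKM in NEC and at 10.2, 12.2 and 13.0 in control. Its NEC mean of 1.75 ± 1.10 was 14.8% of the control mean of 11.8 ± 1.46 (SD, n = 3 each). The highest NEC library, NEC 3, was still below the lowest control. Hoxb9, the most posterior HoxB gene with signal (chr11:96271457-96276595), was at 0.0206, 0.307 and 0.355 FPKM in NEC and at 4.06, 5.17 and 4.06 in control. Its NEC mean was 5.13% of control. Hoxb5, which acts in enteric neural crest cells (chr11:96303336-96306121), stood at 1.02, 1.27 and 2.10 FPKM against 6.00, 6.57 and 7.34, which was 22.0% of control. These 3 marker genes were lowest in NEC 1 and highest in NEC 3.

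The other HoxB genes with signal were lower in every NEC library too. Hoxb7 was at 0.569, 1.23 and 1.48 FPKM in NEC and 6.09, 5.42 and 5.31 in control, or 19.5% of control. Hoxb3, a hindbrain and thymus patterning gene, stood at 0.531, 0.998 and 0.989 against 3.11, 4.50 and 3.16 FPKM, or 23.4%. Hoxb4, known from blood stem cells, was the steadiest in NEC, at 1.61, 1.61 and 1.80 FPKM against 5.16, 4.43 and 5.00. It has 1 annotated transcript, so its fragments could be recovered, 70, 75 and 86 in NEC and 207, 173 and 208 in control. Hoxb2, another hindbrain gene, stood at 0.472, 0.775 and 0.912 FPKM in NEC and 1.56, 1.43 and 1.37 in control, or 49.4%. In all 4 of these genes the groups did not overlap. Hoxb8 was low throughout, at 0.200 to 0.338 FPKM in NEC and 0.375 to 0.636 in control. Hoxb1 and Hoxb13, at the ends of the cluster, were listed at 0 in every library.

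Promoter sequences were at hand for 22 of the 39 genes, and the examples below are the ones in the table for HoxB genes with signal. Each is 300 bases on GRCm38.p6 from RefSeq, from 250 before to 50 after the start, on the plus strand. Capitals mark TTTATG, a Cdx-type motif, TGATNNAT, a Hox-Pbx motif, AGGTCA, and TGACAG, a Meis motif, each on either strand. AGGTCA is a single unit of the repeats bound by retinoid and other nuclear receptors, and no pair of units was searched.
Hoxb8, chr11:96281655-96281954: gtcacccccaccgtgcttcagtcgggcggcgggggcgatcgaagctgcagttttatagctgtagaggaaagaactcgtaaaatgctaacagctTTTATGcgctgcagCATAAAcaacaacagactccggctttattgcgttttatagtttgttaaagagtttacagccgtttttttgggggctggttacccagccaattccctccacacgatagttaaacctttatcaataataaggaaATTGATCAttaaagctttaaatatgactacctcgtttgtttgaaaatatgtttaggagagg
Hoxb4, chr11:96318017-96318316: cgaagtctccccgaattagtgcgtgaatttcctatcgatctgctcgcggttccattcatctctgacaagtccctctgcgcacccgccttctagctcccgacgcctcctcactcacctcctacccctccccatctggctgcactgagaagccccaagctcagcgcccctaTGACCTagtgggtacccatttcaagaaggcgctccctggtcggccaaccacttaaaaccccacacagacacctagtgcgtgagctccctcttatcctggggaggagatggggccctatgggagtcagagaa
The Hoxb8 promoter held 2 TTTATG and 1 TGATNNAT match, and the Hoxb4 promoter 1 AGGTCA match. Among 24 Hox promoters, TTTATG stood in 5, TGATNNAT in 4, AGGTCA in 7 and TGACAG in 2. The shares of all 32851 promoters of that length were 11.9%, 8.85%, 16.3% and 19.2% in the same order. TTTATG and AGGTCA matches overlap in the Hoxd3 promoter. These are letter matches and not shown binding sites.

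**Figure D2:**
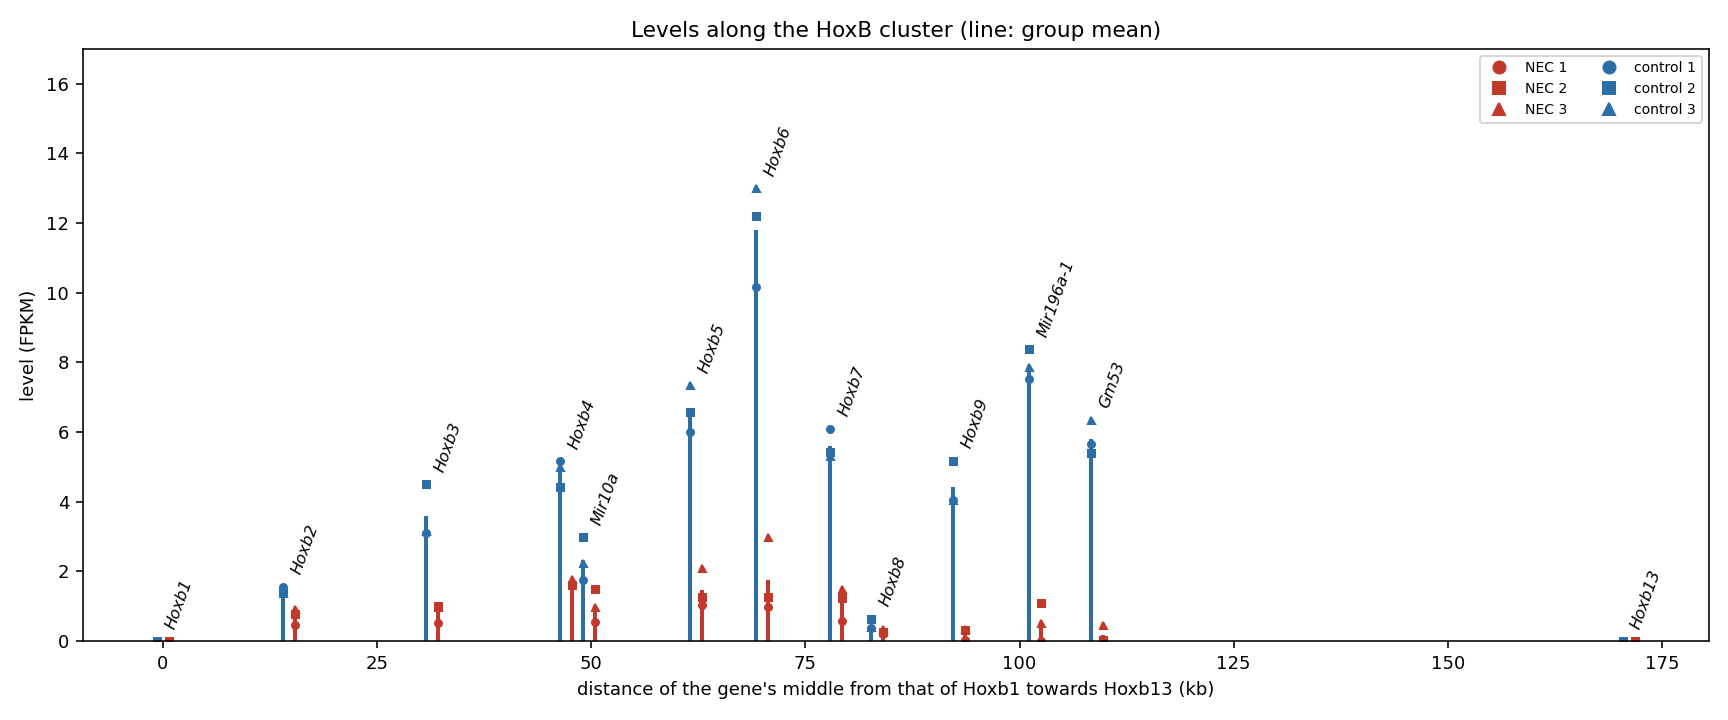
Level in FPKM (vertical lines at group means, points for libraries) of the HoxB genes and of Mir10a, Mir196a-1 and Gm53, placed by the distance in kb of each gene's middle from that of Hoxb1 towards Hoxb13. Control levels continue past Hoxb9 to Mir196a-1 and Gm53, where all NEC libraries are at 1.08 FPKM or less.

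HoxC, at chr15:102921103-103036852, summed to 16.8, 16.8 and 13.9 FPKM in control and to 1.92, 4.66 and 7.79 in NEC, or 30.3% of control and 39.3% without NEC 1. Hoxc6 and Hoxc8 differed widely among the NEC libraries. Hoxc6, a thoracic patterning gene, stood at 0.470, 1.53 and 3.02 FPKM in NEC and at 5.41, 5.86 and 4.73 in control. Hoxc8, known from motor neurons and the rib cage, was at 0.390, 1.13 and 2.75 against 4.46, 3.65 and 3.36 FPKM. In NEC 3 this was 72.0% of the control mean, and in NEC 1 it was 10.2%. Hoxc5 was at 0.618, 1.34 and 1.48 FPKM in NEC and at 4.18, 4.18 and 3.28 in control, and its annotated span overlaps Hoxc6, Hoxc8, Hoxc9 and Hoxc10, so reads could be split between them. Hoxc4 stood at 0.446, 0.617 and 0.405 against 1.61, 1.52 and 1.32 FPKM, or 33.0%. It missed the filter. The groups did not overlap in any of these genes.

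The posterior HoxC genes were close to or at 0 in NEC. Hoxc10, a lumbar-level gene with 1 annotated transcript, had 0 fragments in all 3 NEC libraries and 13, 20 and 16 fragments in control, at 0.436, 0.688 and 0.517 FPKM. Hoxc9 was at 0, 0.0366 and 0.125 FPKM in NEC and at 0.660, 0.895 and 0.718 in control, 7.10% of control. Hoxc11, Hoxc12 and Hoxc13 were listed at 0 in every library.

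HoxA was the cluster with the smallest gap. It lies at chr6:52155590-52260880 and summed to 13.1, 15.4 and 12.9 FPKM in control and to 5.65, 9.79 and 9.02 in NEC, or 59.0% of control and 68.0% without NEC 1. Hoxa5, which patterns lung and gut mesenchyme, was its most abundant gene, at 2.58, 4.02 and 4.57 FPKM in NEC and 6.24, 7.35 and 5.98 in control. In fragments this was 82, 137 and 160 against 183, 210 and 182. Hoxa6 stood at 1.49, 2.33 and 1.41 FPKM against 2.49, 2.86 and 2.68, or 65.1% of control. Hoxa3, a gene of pharyngeal and thymus patterning, stood at 0.849, 1.18 and 1.14 against 1.33, 1.45 and 1.296 FPKM, or 77.7%. Hoxa6 and Hoxa3 were the 2 tested members that were not called, although their groups did not overlap.

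Of the lower HoxA genes, Hoxa4 was at 0.222, 0.656 and 0.672 FPKM in NEC and 1.04, 1.32 and 0.774 in control. Hoxa2, a hindbrain and palate gene, overlapped between the groups, at 0.366, 1.15 and 0.694 against 0.865, 1.295 and 1.08 FPKM. These 2 genes lie just above the level of 1 FPKM in the higher group, from which each gene was named with all its values, and Hoxc9 and Hoxa7 lie just below it. Hoxa7 had 44.4% of its control mean of 0.606 FPKM. Hoxa9 stood at 0.0161, 0 and 0.0293 FPKM in NEC and at 0.376, 0.350 and 0.379 in control, 4.11% of control. Hoxa10 was listed at 0 in NEC and at most at 0.0681 FPKM in control, and Hoxa11 and Hoxa13 were listed at 0 throughout. Hoxa3 overlaps Hoxa4, Hoxa5, Hoxa6 and antisense genes in the annotation, and the strand setting of the counting was not given in the sources used here, so reads of a gene and its antisense partner cannot be told apart.

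HoxD, at chr2:74668310-74765142, was the least abundant cluster, with sums of 5.90, 6.54 and 6.34 FPKM in control and 2.02, 3.31 and 3.49 in NEC, or 47.0% of control. Hoxd4 stood at 1.19, 1.56 and 2.31 FPKM in NEC and at 2.47, 3.21 and 3.86 in control, or 53.1%, and it overlaps Hoxd3. Hoxd8 was at 0.370, 0.857 and 0.661 against 1.91, 2.40 and 1.66 FPKM, or 31.6%. Hoxd3 stood at 65.1% of its control mean of 0.544 FPKM. Hoxd9 was the exception among the genes of paralog number 9. It has 1 transcript, with 3, 20 and 7 fragments in NEC and 23, 17 and 11 in control, and its groups overlapped. Hoxd10 had at most 3 fragments in a library, and Hoxd1, Hoxd11, Hoxd12 and Hoxd13 were listed at 0.

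The gap between NEC and control was widest at posterior paralog numbers, without an even gradient. Summed by paralog number, the NEC mean was 21.9% of control at 7, 36.9% at 8 and 9.14% at 9. The 6 anterior genes (numbers 1 to 3) above 0 in all controls had a median of 66.6% of control, with a range from 23.4% at Hoxb3 to 77.7% at Hoxa3. The 15 central genes (4 to 8) had a median of 34.4%, from 14.8% at Hoxb6 to 65.1% at Hoxa6. The 5 posterior genes (9 to 13) had a median of 5.13%, from 0% at Hoxc10 to 50.6% at Hoxd9. Without NEC 1 the medians were 73.9%, 42.7% and 7.47%. Across the 26 genes, Spearman's rho between paralog number and percent of control was -0.60, or -0.52 without NEC 1. Within clusters it was -0.83 in HoxA (8 genes), -0.45 in HoxB (8), -0.60 in HoxC (6) and -0.80 in HoxD (4). These genes share libraries and, within a cluster, neighbouring and overlapping transcripts, so they are not independent points. Low levels in the posterior genes also make their percentages less exact.

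**Figure D3:**
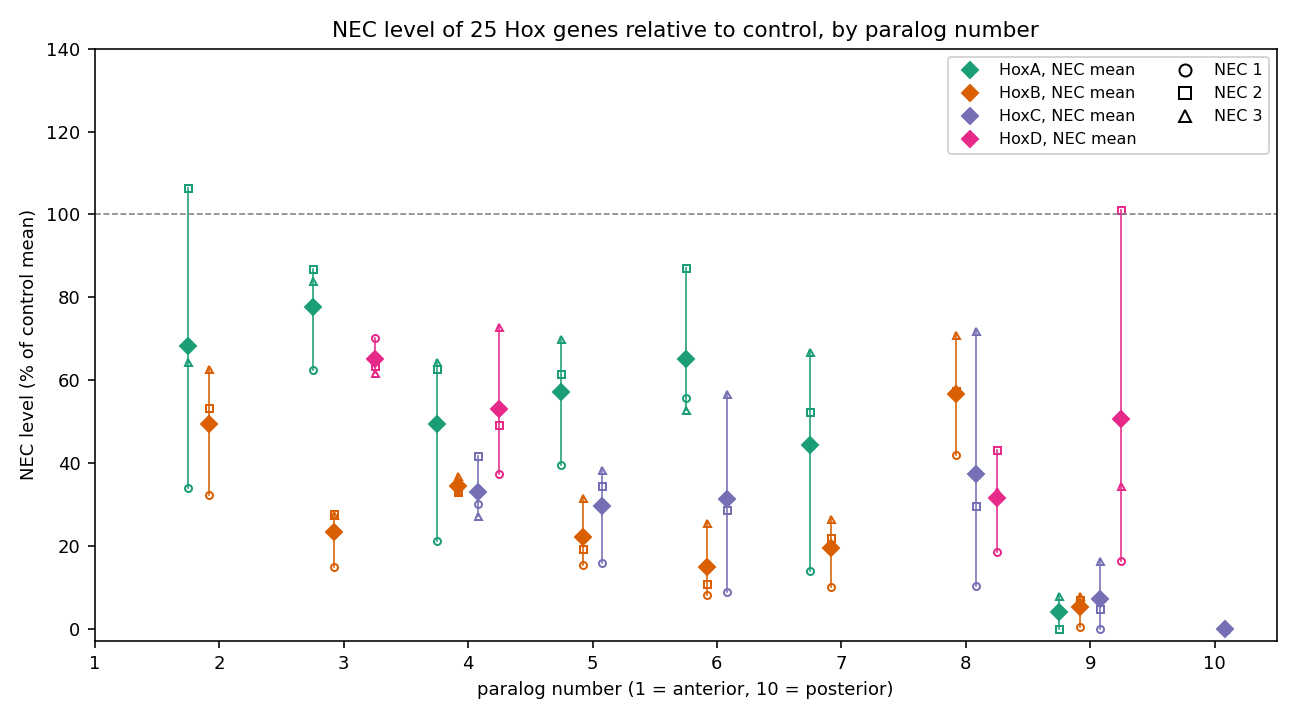
NEC level as a percentage of the control mean for 25 Hox genes above 0 in all 3 controls that reached 0.3 FPKM in at least 1 library, against paralog number and coloured by cluster. Diamonds are NEC means and open symbols the 3 NEC libraries. The means of Hoxa9, Hoxb9, Hoxc9 and Hoxc10 lie under 10%, with Hoxc9 at 16.5% in NEC 3, and the libraries of Hoxd9 spread from 16.3% to 101%.

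Shares within a library do not depend on how libraries are scaled to each other. HoxB held 50.5% to 54.4% of the Hox sum in control and 30.3% to 36.0% in NEC. HoxA held 17.8% to 19.5% in control and 28.9% to 38.4% in NEC, and HoxD 8.17% to 8.70% in control and 11.2% to 13.5% in NEC. In these 3 clusters the groups did not overlap. HoxC overlapped, with 19.1% to 23.2% in control and 12.8% to 24.9% in NEC. The posterior genes held 8.22% to 9.72% of the Hox sum in control and 0.799% to 3.49% in NEC, and the anterior genes 10.2% to 11.8% in control and 13.3% to 18.0% in NEC. The central genes overlapped at 78.5% to 81.5% in control and 78.5% to 84.5% in NEC.

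Ratios of gene pairs restate these levels within a library. Their numerators, Hoxb9, Hoxb6 and Hoxb5, are the markers by which the set was selected, and each denominator is a member with a smaller gap. The ratios are therefore a description and add no separate support. Hoxb9 over Hoxb4, of the same cluster, was 0.0128, 0.191 and 0.197 in NEC and 0.786, 1.17 and 0.812 in control. Hoxb6 over its HoxA paralog Hoxa6 was 0.653, 0.546 and 2.13 in NEC and 4.08, 4.27 and 4.85 in control. Hoxb5 over Hoxa5 was 0.396, 0.316 and 0.459 against 0.962, 0.894 and 1.23. In each ratio every NEC library was below every control library.

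**Figure D4:**
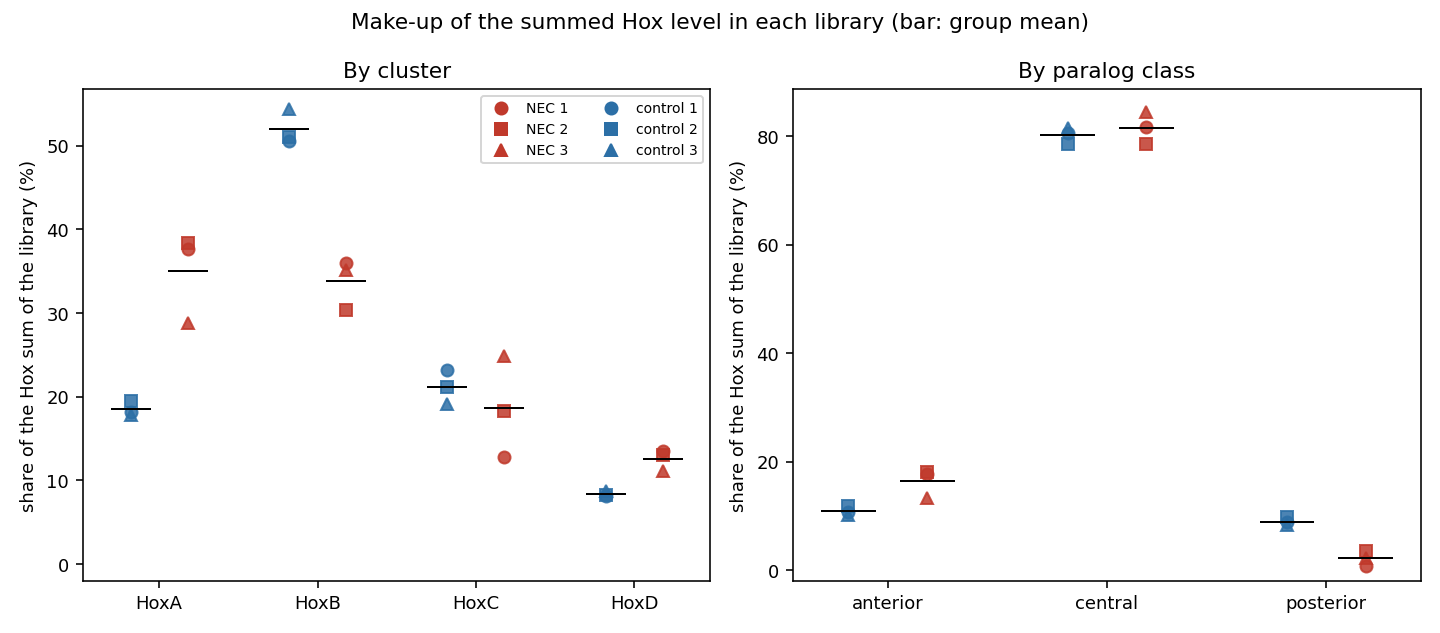
Share of each library's summed Hox level (%) held by each cluster and by each paralog class, with 1 point per library and a bar at each group mean. HoxB and the posterior genes hold smaller shares in NEC, HoxA, HoxD and the anterior genes larger ones.

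Markers of mesenchyme were lower along with the Hox genes, and so were the sums of the other non-epithelial cell type lists. All 11 fibroblast and mesenchyme markers were called lower in NEC, and their sum was 116, 283 and 323 FPKM in NEC and 700, 720 and 592 in control, with none at 0. Foxf1, a transcription factor of gut mesenchyme, fell by 1.06 in log2 units with an SE of 0.13 (limma adjusted p = 0.00512). The NEC mean of Foxf1 was 46.4% of control, that of Twist1 25.6% and that of the collagen gene Col1a1 37.8%. Of 8 enteric neuron and glia markers, 5 were tested and 4 called lower, and the sum was 34.6 to 47.1 FPKM in NEC and 60.9 to 68.1 in control. Of 8 smooth muscle markers 1 was called lower, of 5 endothelial markers 3, and of 4 tested immune markers 1. Among all genes tested, 30.6% were called lower. The sums of these full lists were 58.6%, 59.5% and 67.2% of control in the same order, and that of mesenchyme was 35.9%. Their median log2 changes were -0.92, -0.64 and -0.44, and that of mesenchyme was -1.25. Of 8 epithelial markers, 1 was called lower and 2 higher, and their sum was 1551 to 1847 FPKM in NEC and 1389 to 1488 in control. The part of these cell types in the Hox levels was not tested.

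Set against the mesenchyme markers of the same library, the Hox sum no longer separated the groups. It was 12.9, 9.02 and 9.68 FPKM per 100 FPKM of the 11 markers in NEC and 10.3, 11.0 and 12.3 in control, with an NEC mean at 94.0% of control. Col1a1 and Col3a1 made up most of the marker sum, with control means of 234 and 227 FPKM. Single markers stood between 21.9% of control for Dcn and 66.8% for Pdgfrb, and the undivided Hox sum at 32.0%. The ratio therefore depends on which markers are used. The clusters parted on the scale of the marker sum. HoxA was higher in every NEC library, at 4.86, 3.47 and 2.79 against 1.87, 2.14 and 2.19. HoxD was higher in every NEC library too, at 1.74, 1.17 and 1.08 against 0.843, 0.908 and 1.07. HoxB was lower in every NEC library, at 4.64, 2.74 and 3.40 against 5.22, 5.60 and 6.70, and HoxC overlapped. The posterior genes stood at 0.103, 0.315 and 0.212 in NEC and at 0.911, 1.07 and 1.01 in control, 21.0% of control. Among the 18 named members, 4 were lower in every NEC library, namely Hoxb6, Hoxb7, Hoxb9 and Hoxc5, 9 overlapped, and 5 were higher in every NEC library, namely Hoxa2, Hoxa3, Hoxa4, Hoxa5 and Hoxb2. With the geometric mean of the markers in place of their sum, 6 were lower, 8 overlapped and 4 were higher. This division was chosen after the values were seen. As the marker sum was lower in every NEC library, dividing by it raises any gene in NEC relative to control. No share over all genes was computed on this scale, so these counts describe the members only.

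**Figure D5:**
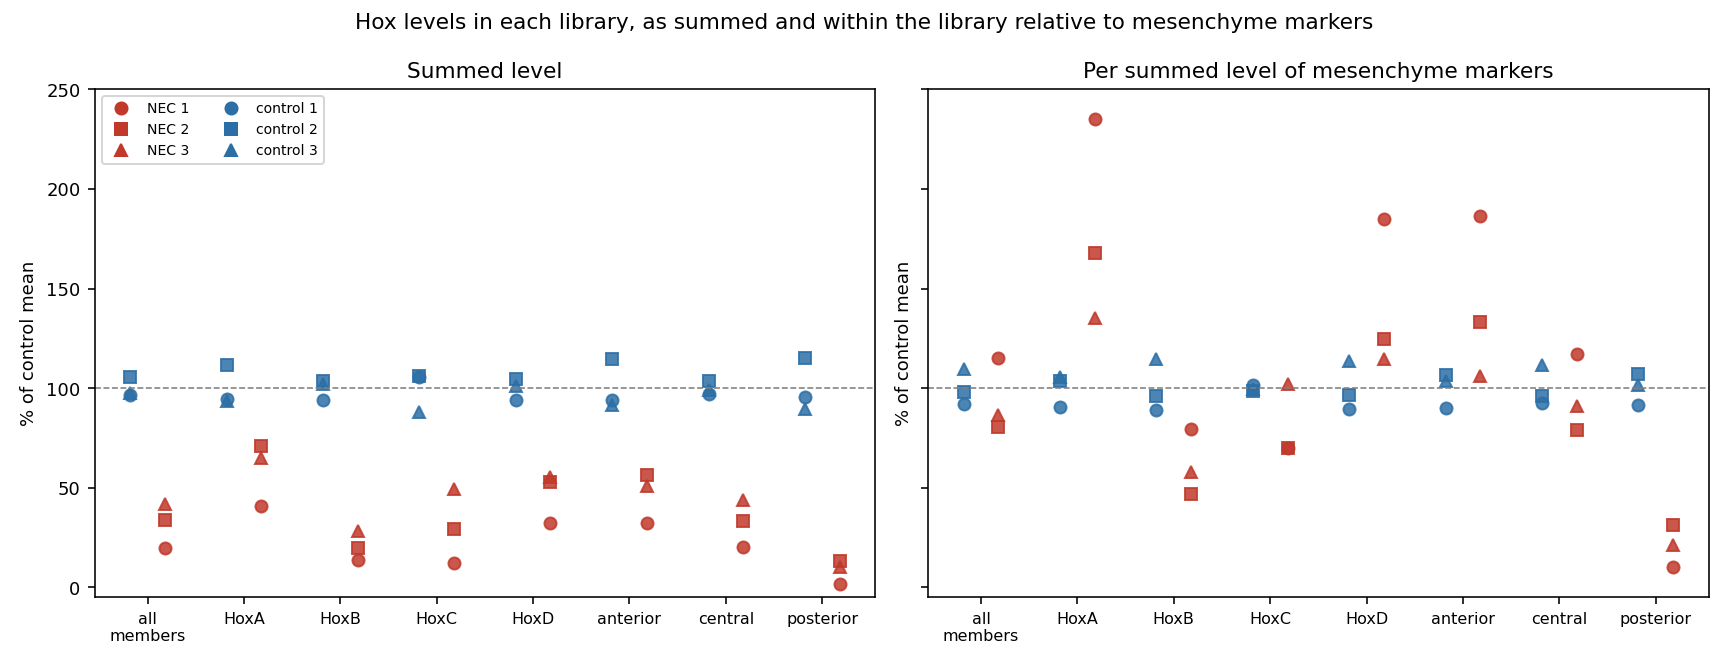
Hox level of each library as a percentage of the control mean, for all members, for each cluster and for each paralog class. The left panel uses the summed FPKM, and the right panel divides it by the sum of the 11 mesenchyme markers of the same library, where HoxB and the posterior genes stay lower in NEC while the total overlaps.

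A marker of bowel position also differed. Gata4, a transcription factor of the upper small intestine, was at 7.96, 7.28 and 3.74 FPKM in NEC and at 0.0622 to 0.184 in control. It rose by 2.67 in log2 units with an SE of 0.25 (limma adjusted p = 0.00224). With means of 6.32 FPKM in NEC and 0.111 in control, Gata4 passed the filter only through its NEC level. It was also chosen with earlier results known, so its p-value is a description. Within NEC, NEC 3 had the lowest Gata4. NEC 3 was strictly highest of the NEC libraries for 16 of 25 Hox genes, NEC 2 for 8 and NEC 1 for 1. The sum of the mesenchyme markers was also highest in NEC 3, at 323 FPKM against 116 and 283 in NEC 1 and 2. The site along the bowel from which each sample was cut, and its part in the Hox levels, was not tested.

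Of 3 tested noncoding genes between Hoxb9 and Hoxb13, Gm53 and Mir196a-1 were at 2.80% and 6.75% of control and Gm11539 was at 61.6% of control. Gm53, a long noncoding RNA between Hoxb9 and Hoxb13 (chr11:96251105-96264868), was at 0.0111, 0.0208 and 0.455 FPKM in NEC and at 5.65, 5.40 and 6.34 in control. It fell by 2.57 in log2 units with an SE of 0.17 (limma adjusted p = 0.000989), and 3 of 3 NEC libraries were below all controls. The Mir196a-1 hairpin printed above had 0, 2 and 1 fragments in NEC and 12, 13 and 13 in control, and fell by 2.60 with an SE of 0.26 (limma adjusted p = 0.00284). Both were called lower in each of the 12 alternatives in which they were tested. Mir10a, between Hoxb4 and Hoxb5, was called lower (limma adjusted p = 0.0384) with 1, 3 and 2 fragments in NEC and 3, 5 and 4 in control. Mir615, inside Hoxc5, was called lower at 0 to 1.17 FPKM against 1.39 to 2.68. The call of Mir10a held in 4 of 12 alternatives and that of Mir615 in 3 of 12. Both were lost under TMM and quantile scaling, without the filter, without NEC 1 and without any 1 control. Mir10b, in HoxD, was not called, at 0.869, 0.810 and 2.36 FPKM against 2.82, 0.966 and 2.72. The pseudogene Gm11539, on the Hoxb13 side of Gm53, was at 14.3, 21.7 and 21.4 FPKM against 32.3, 28.5 and 32.5 and was called lower. In all, 46 annotated genes that are no members lie within the clusters, 6 were tested, and 5 were called lower and 0 higher by limma, also 0 higher at an unadjusted p under 0.05. Among all genes tested, 30.6% were called lower and 7.69% higher. Gm53, Mir196a-1 and Mir615 had NEC means of 0.162, 0.535 and 0.588 FPKM and passed the filter only through their control level. Their p-values and the count of genes called are therefore a description. These libraries of long RNA measure hairpin or host transcripts and not the mature microRNAs.

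Genes flanking the clusters, up to 910 kb away, differed less in the median of those tested. Of 24 flanking protein-coding genes, the 3 nearest on each side of each cluster, 18 were tested, 6 were called lower and 1 higher. Their median log2 change was -0.29, beside -0.26 over all genes tested. Some of the nearest genes missed the filter, with Evx1, Evx2 and Ttll6 at or near 0. Skap1, the gene nearest to Hoxb1, missed it too. It stood at 26.8% of its control mean of 0.259 FPKM, with every NEC library below every control library. The nearest tested genes that were not called were Skap2 and Hibadh beside HoxA, Atp5g1 and Snx11 beside HoxB, Smug1 beside HoxC, and Lnpk and Mtx2 beside HoxD, with log2 changes from -0.31 for Hibadh to 0.11 for Atp5g1. Calcoco1 beside HoxC fell by 0.77. Further out, Cbx1, Cbx3 and Hnrnpa1, which encode heterochromatin proteins and an RNA-binding protein, fell by 0.52, 0.82 and 0.98, and Tax1bp1, an autophagy receptor, rose by 0.39 on the log2 scale. The call of Calcoco1 was lost without control 2, and those of Cbx1, Cbx3, Tax1bp1 and Gm11539 without any 1 control. TMM scaling also ended those of Cbx1 and Gm11539.

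Hox proteins bind DNA with cofactors of the Pbx and Meis families. Of 9 genes of this group 7 were tested, 5 were called lower and 0 higher by limma, also 0 higher at an unadjusted p under 0.05, with a median log2 change of -0.79. Meis2 stood at 0.831, 1.78 and 2.14 FPKM in NEC and 3.83, 4.54 and 3.72 in control, and fell by 0.99 in log2 units with an SE of 0.21 (limma adjusted p = 0.0163). Meis1 fell by 0.79, Pbx2 by 0.66 and Pbx3 by 0.89 on the same scale. These cofactors are also known from mesenchyme, whose markers were lower by the amounts given above. The part of mesenchyme in the cofactor levels was not tested.

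The Cdx genes, upstream regulators of Hox clusters in the embryo and of intestinal identity in the epithelium, were not called, with 0 of 2 tested genes also at an unadjusted p under 0.05. Cdx2 was at 65.4, 51.2 and 59.0 FPKM in NEC and 66.1, 68.4 and 69.2 in control, and its change of -0.22 in log2 units had an SE of 0.11 (limma adjusted p = 0.16). Cdx1 was at 73.7, 52.7 and 60.5 against 55.1, 55.3 and 57.9 FPKM, with a log2 change of 0.14. Under TMM scaling the change of Cdx2 was 0.12. Without NEC 1 it was -0.30 and was called lower (limma adjusted p = 0.032). Cdx4, Gsx1 and Gsx2 were listed at 0.

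Polycomb proteins keep Hox genes silent and Trithorax proteins keep them active. Of 30 Polycomb genes 29 were tested, 10 were called lower and 0 higher by limma, 1 higher at an unadjusted p under 0.05, with a median log2 change of -0.28, close to that of all genes. Rnf2, the ubiquitin ligase of Polycomb complex 1, fell by 0.62 and Ezh1, a methyltransferase of complex 2, by 0.35. Cbx7 fell by 0.51 and Phc1 by 0.59. Of 13 Trithorax and H3K27 demethylase genes 12 were tested, 4 were called lower and 1 higher, with a median of -0.26. Kmt2a, the Trithorax methyltransferase best known for keeping Hox genes on, fell by 0.43 with an SE of 0.10 (limma adjusted p = 0.0221), and its partner Psip1 by 0.97. Ash2l fell by 0.42, and Kmt2d, a related methyltransferase, rose by 0.31.

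Retinoic acid induces anterior Hox genes through its nuclear receptors. Of 17 retinoic acid genes 9 were tested, 2 were called lower and 0 higher by limma, 1 higher at an unadjusted p under 0.05, with a median log2 change of -0.32. Rarg, a retinoic acid receptor, fell by 0.79 and Rdh10, which makes retinaldehyde, by 0.49. Aldh1a3, which makes retinoic acid, had a change of 0.32 and Rxrb, a partner receptor, of -0.34, and neither was called. Leaving out control 1 or control 2 ended the call of every gene named as risen or fallen in the cofactor, Polycomb, Trithorax and retinoic acid lists. TMM scaling ended those of Cbx7, Ezh1, Phc1, Ash2l, Kmt2a, Psip1 and Rdh10.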

How the data were processed

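RNA of 6 terminal ileum samples with an integrity number above 7 was made into paired-end TruSeq libraries, per the labels' protocols. HISAT2, SAMtools 1.3.1 and Cuffdiff were run on mm10, per the submitters' processing notes. The deposited table names no unit. Its numbers were taken to be FPKM computed by the authors with Cuffdiff: in genes with 1 transcript, 98.9% to 99.1% of small values equal whole fragments within 0.01, which also gave the depth, an estimate. GENCODE M21 names matched 55141 of 55487 gene identifiers.

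NEC was compared with control by limma 3.58.1 (R 4.3.3, trended variance) on log2(FPKM + 1), keeping genes whose mean over 6 libraries reached 1 FPKM, with Benjamini-Hochberg adjustment over all of them and a threshold of 0.05. This scale understates changes of low genes. An exact permutation test of 3 against 3 cannot go below 0.1 and was not used. The fit was tested on simulated data.

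The members and all lists were chosen with earlier results of these data known. Members reaching a mean of 1 FPKM in the higher group were named with every value, and up to 4 genes per list by smallest p, plus any called against their list. Values of a few members and list genes are not reported here. Plots of single members show those reaching 0.3 FPKM in a library. Alternatives were another pseudocount (0.1), no filter or one at 5 FPKM, TMM and quantile scaling, a replicate block, an untrended variance and each library left out. Python 3.11.15 and matplotlib 3.10.9 served for the rest.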

Additional observations from a re-analysis of the deposited data

How the results depend on the processing

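The number of members called lower, 13 as reported, was 9 under TMM and quantile scaling, 12 with a pseudocount of 0.1, 13 without the trend and 15 without the filter. With a mean of at least 5 FPKM only 2 members were tested and 2 called. Leaving out 1 library gave 7 to 14 members called lower, the lowest number without control 2, and 8 without control 1 and without control 3. Over all genes, lower calls numbered 4829 of 15806 as reported, 2252 under TMM, 2387 under quantile scaling and 3230 with the replicate block. They were 4373 with a pseudocount of 0.1, 4878 without the trend, 5139 of 33583 without the filter and 1746 of 6950 at 5 FPKM. Without control 1, 2 and 3 they were 1049 of 15595, 917 of 15553 and 1979 of 15644. In none of these settings was a member called higher. The median log2 change of the members tested was -1.70 with a pseudocount of 0.1, -0.64 without the filter, -1.49 with a mean of at least 5 FPKM and -0.82 under quantile scaling, and -1.24 to -0.76 with 1 library left out, the latter without NEC 1. Hoxa3 changed sign under quantile scaling, to 0.19. Replicate numbers are shared between the groups, but same-numbered libraries did not deviate together (correlations -0.05, -0.01 and -0.07). The labels state no pairing, and with 3 libraries per group this check cannot exclude one. With the replicate block 11 members were called lower.

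Over the pathway lists and the genes inside and beside the clusters, 32 genes were called lower and 2 higher. The numbers were 14 lower with a mean of at least 5 FPKM, 11 lower and 11 higher under TMM, 17 and 7 under quantile scaling, and 17 and 0 with the replicate block. With 1 library left out they were 3 to 34 lower, with 3, 4 and 9 without control 2, 1 and 3 and 13 without NEC 2, and 0 to 7 higher, with 7 without NEC 1, 1 without NEC 3 and 0 without any 1 control. Cdx2 changed sign under TMM, to 0.12. Divided by the geometric mean of the mesenchyme markers, an alternative chosen after seeing the data, the Hox sum of NEC was 90.1% of control, and divided by their sum 94.0%. Depth limits the posterior genes most, as those with recovered counts had at most 23 fragments.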
